A study of Mus musculus with 9 samples.

Results

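Glutathione S-transferases were followed through 10 genes of the family, chosen as all probe sets whose gene symbol is Gsta2, Gsta3, Gsta4, Gstm1, Gstm2, Gstm5, Gsto1, Gstt1, Mgst1 or Mgst3, of 18193 genes with a probe set on the arrays. The genes were selected on their array signals, in particular with the Ube2m comparisons known, so their values in those comparisons are a description. Counts of calls there are printed only beside the share of all genes called, and nothing is read from them. NIH 3T3 cells, a long-established fibroblast line from mouse embryos, received a retroviral vector with a short hairpin RNA (shRNA) against Ube2m, an shRNA against Ube2f or a control shRNA, with 3 biological replicates in each group. Total RNA was taken 5 days after transduction in every group and hybridised to 9 expression arrays. The growth label describes the cells of all 3 groups as expressing Ube2f, and no source used here says whether that refers to an added construct or what the control hairpin targets. Ube2m and Ube2f encode the enzymes that hand the ubiquitin-like protein NEDD8 to cullins.

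Glutathione S-transferases join the tripeptide glutathione to electrophilic compounds, which makes these more soluble and ready for export. The soluble enzymes are divided into classes by sequence, among them alpha, mu, omega and theta, while the microsomal enzymes form an unrelated family of membrane proteins with the same reaction. Several of the genes are classical targets of NRF2, a transcription factor that binds antioxidant response elements and that a cullin 3 ligase with the adaptor KEAP1 marks for degradation. In mouse liver the alpha and mu classes are abundant, and aryl hydrocarbon receptor ligands also induce members of the alpha class.

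Promoters in RefSeq (GRCm38.p6, 250 bases before to 50 after the annotated start) were matched for 9 of the 10 genes, giving 11 promoters. The gene without a promoter was Gsta4, which was therefore not searched. The antioxidant response element core was searched as TGACNNNGC and the core bound by the aryl hydrocarbon receptor as GCGTG, on both strands. In all, 4 are shown because they hold a match to the first core in genes of very different response, or none in a gene that responded strongly, and capitals mark TGACNNNGC matches read on either strand. Gsta3 (chr1:21240335-21240634, plus strand), Mgst1 (chr6:138140277-138140576, plus strand), Gstm5 (chr3:107895604-107895903, plus strand) and Gsta2 (chr9:78347096-78347395, minus strand) read as follows.
Gsta3: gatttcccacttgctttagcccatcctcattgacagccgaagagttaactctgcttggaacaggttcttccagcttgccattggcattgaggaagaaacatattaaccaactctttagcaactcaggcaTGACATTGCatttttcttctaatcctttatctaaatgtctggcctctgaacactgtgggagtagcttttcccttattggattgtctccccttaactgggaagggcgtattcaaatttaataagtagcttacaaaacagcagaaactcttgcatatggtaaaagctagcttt
Mgst1: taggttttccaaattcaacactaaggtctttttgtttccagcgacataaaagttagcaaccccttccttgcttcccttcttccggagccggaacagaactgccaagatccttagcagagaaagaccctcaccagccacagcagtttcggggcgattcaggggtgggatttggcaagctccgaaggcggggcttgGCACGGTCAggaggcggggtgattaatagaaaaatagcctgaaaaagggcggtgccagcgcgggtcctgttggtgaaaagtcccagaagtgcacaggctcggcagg
Gstm5: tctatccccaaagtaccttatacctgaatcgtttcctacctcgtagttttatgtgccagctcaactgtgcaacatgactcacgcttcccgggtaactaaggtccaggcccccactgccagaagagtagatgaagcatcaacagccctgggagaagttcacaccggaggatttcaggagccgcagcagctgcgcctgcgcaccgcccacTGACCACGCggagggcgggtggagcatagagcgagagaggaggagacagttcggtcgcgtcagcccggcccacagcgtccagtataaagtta
Gsta2: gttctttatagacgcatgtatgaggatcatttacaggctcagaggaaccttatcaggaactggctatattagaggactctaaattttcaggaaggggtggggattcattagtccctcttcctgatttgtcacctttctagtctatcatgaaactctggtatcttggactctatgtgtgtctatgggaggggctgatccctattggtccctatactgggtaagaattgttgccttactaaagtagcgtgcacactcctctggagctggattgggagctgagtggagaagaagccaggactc
TGACNNNGC was present in 3 of the 11 promoters, those of Gsta3 and Gstm5 and the printed one of Mgst1, and in 12.4% of all 32851 promoters of the same length. GCGTG was present in 5 of the 11, belonging to Gsta2, Gstm1, Gstm5 and Mgst3, against 32.4% of all promoters. The Gstm1 promoters overlap and hold the same GCGTG site, which is counted in both. In the Gstm5 promoter a GCGTG match lies inside the TGACNNNGC match, and another overlaps the single match to the AP-1 motif TGANTCA, which 7.81% of all promoters hold. A match describes the letters in this window and no binding was measured.

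The hairpin target was checked first. Ube2f had a signal of 132 ± 13.2 in Ube2f shRNA cells, 2956 ± 229 in Ube2m shRNA cells and 2539 ± 199 in control cells (SD, n = 3 each). Its level in Ube2f shRNA cells was lower by 4.11 on the log2 scale than in control cells, in every replicate. These values are from its brightest probe set. Others with control means of 2608, 2025 and 1011 read 136, 126 and 133 in Ube2f shRNA cells. A dimmer one read 106 in control and 33.1 in Ube2f shRNA cells. Another dim one did not fall, with 89.3 in control and 103 in Ube2f shRNA cells. Ube2m had no probe set in the table used here, so the reduction of Ube2m was not checked. Signals are linear MAS5 intensities scaled by the submitters so that the trimmed mean of each array is 500, and differences are on the scale log2(signal + 16), which understates the change of low signals. The median of all probe sets, a signal of 53.8, is called the low-signal level here, and genes whose mean lay under it were not tested. Median signals were 53.3 to 58.5 on the replicate 1 and 2 arrays, and 73.2, 73.5 and 64 on the replicate 3 arrays of Ube2m shRNA, Ube2f shRNA and control cells. The 3' to 5' signal ratio of beta-actin, a measure of RNA integrity, was 1.82 on control replicate 1 and 1.24 to 1.35 on the other arrays. Of 11 fibroblast markers, 10 were above the low-signal level, while 0 of 4 endothelial and 0 of 4 measured adipocyte markers were. Of the hepatocyte markers 1 of 7 measured was above it, Hnf4a at 68.8, while albumin (Alb) averaged 22.1. Of the macrophage markers 3 of 6 were above it, Lyz2 at 177, Csf1r at 151 and Cd68 at 55.9, while Ptprc averaged 12.3.

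In Ube2m shRNA cells the alpha class genes stood far above control, Mgst1 and Gstm1 were moderately higher, Gsto1 was slightly higher, and Gstm5 and Mgst3 were close to control. Limma's moderated test called 6 of the 9 tested genes higher and 0 lower in Ube2m shRNA than in control cells, where 3.59% of all 10613 genes tested were called higher, 6.12% lower and 9.71% in either direction. Since the genes were chosen with this comparison known, nothing is read from that count. The median difference of the 10 genes was 1.12, beside -0.04 over all genes tested. In 7 of the 10 genes all Ube2m shRNA arrays lay above all control arrays, against 11.6% of all genes tested.

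Gsta4 encodes the alpha class enzyme best known for conjugating 4-hydroxynonenal, a product of lipid peroxidation. Its signal was 18858.9, 18720.8 and 16553.3 in Ube2m shRNA cells, 923.2, 945.1 and 814.4 in Ube2f shRNA cells and 1697.8, 1553.5 and 1763.2 in control cells. The 3 groups did not overlap in any pairing, with Ube2m shRNA highest and Ube2f shRNA lowest. Means were 18044 ± 1293 in Ube2m shRNA and 1672 ± 107 in control cells (SD, n = 3 each), a 10.8-fold ratio and a log2 difference of 3.42 (SE 0.10).

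Gsta3, whose mouse enzyme detoxifies the epoxide of aflatoxin B1, was measured above the low-signal level only in Ube2m shRNA cells. Its signal was 730.3, 779.7 and 837.7 in Ube2m shRNA cells, 11.3, 1.7 and 3.4 in Ube2f shRNA cells and 15, 4 and 32.9 in control cells. The Ube2m shRNA mean of 783 ± 53.8 (SD, n = 3) was therefore at least 14.6-fold higher, taking the low-signal level as the bound for control cells. The fitted difference of 4.68 (SE 0.33) depends on the added constant and is no bound.

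Gsta2, an alpha class enzyme with peroxidase activity towards lipid hydroperoxides, gave a similar picture. Signals of 570.8, 729.4 and 926.4 were found in Ube2m shRNA cells, 5.3, 4.5 and 29.5 in Ube2f shRNA cells and 36.8, 2.6 and 17.9 in control cells. Every Ube2f shRNA and control array was under the low-signal level, and the Ube2m shRNA mean of 742 ± 178 (SD, n = 3) was at least 13.8-fold higher than in control cells by the same bound. Both Gsta2 and Gsta3 entered the test only through the Ube2m shRNA arrays, so they had to differ.

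A further probe set is assigned to Gsta1, Gsta2 and Gm3776 together, and its signal cannot be divided among these near-identical genes. It gave 1765.7, 1748.3 and 1878.5 in Ube2m shRNA cells, 49.8, 62.4 and 53.1 in Ube2f shRNA cells and 104, 129 and 170.3 in control cells. As for Gsta4, the groups did not overlap and the order was Ube2m shRNA, control, Ube2f shRNA. The log2 difference of Ube2m shRNA from control was 3.61.

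**Figure D1:**
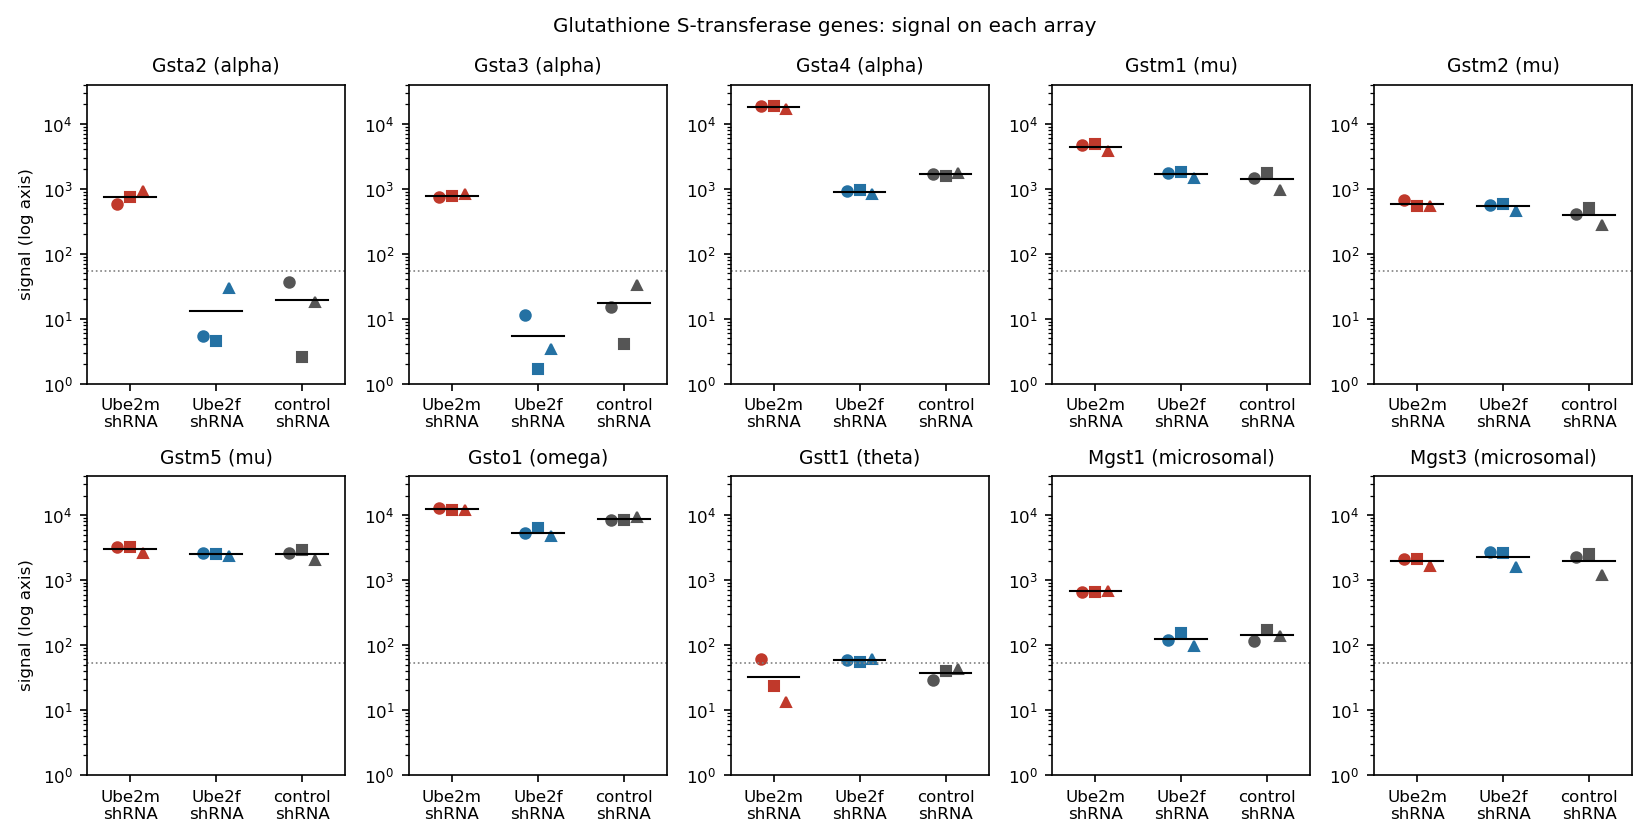
Signal of each of the 10 genes on each array on a log axis, with Ube2m shRNA in red, Ube2f shRNA in blue and control shRNA in grey; circles, squares and triangles are replicates 1, 2 and 3, the bar is the group mean and the dotted line the low-signal level of 53.8. Gsta2 and Gsta3 lie under the line in both other groups and between 570.8 and 926.4 in Ube2m shRNA cells.

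The mu class spanned a narrower range, from 0.27 to 1.69 in the difference between Ube2m shRNA and control cells. Gstm1, a conjugating enzyme of broad substrate range, had signals of 4607.1, 4824.1 and 3797.9 in Ube2m shRNA cells, 1751.5, 1816.3 and 1445.4 in Ube2f shRNA cells and 1474.8, 1740.3 and 964.1 in control cells. Ube2m shRNA arrays stood apart from both other groups, which overlapped each other. The log2 difference from control was 1.69 (SE 0.19), from means of 4410 ± 541 and 1393 ± 395 (SD, n = 3 each).

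Gstm2, a close relative of Gstm1, had signals of 661.9, 534.2 and 537.7 in Ube2m shRNA cells, 566.3, 579.8 and 460 in Ube2f shRNA cells and 412.4, 499.4 and 276.1 in control cells. Ube2m shRNA arrays all lay above the control arrays, by 0.56 on average (SE 0.19), but overlapped those of Ube2f shRNA cells.

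Gstm5, also of the mu class, had signals of 3228, 3199.3 and 2620.8 in Ube2m shRNA cells, 2592.3, 2542.4 and 2335.6 in Ube2f shRNA cells and 2636.4, 2889.9 and 2037.4 in control cells. The Ube2m shRNA arrays overlapped those of control cells, with a difference of 0.27 (SE 0.14), and lay above those of Ube2f shRNA cells. Its promoter carries the antioxidant response element core, as do the Gsta3 promoter and the Mgst1 promoter printed above, but not the other Mgst1 promoter. Gsta3 and Mgst1 had signals of 783 ± 53.8 and 669 ± 18.2 in Ube2m shRNA cells, against 17.3 ± 14.6 and 142 ± 26.2 in control cells (SD, n = 3 each). A link between the core and these signals was not tested.

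Mgst1 encodes a microsomal glutathione transferase that also reduces lipid hydroperoxides. Its signal was 653, 665.8 and 689 in Ube2m shRNA cells, 119, 156 and 96.6 in Ube2f shRNA cells and 116.7, 169 and 139.7 in control cells. Ube2m shRNA cells stood apart, while the other groups overlapped. The log2 difference from control was 2.13 (SE 0.19), the 11th highest of all genes tested. This difference became 1.84 with a constant of 64 and 1.23 with the probe sets of each gene averaged.

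Mgst3, the other microsomal gene, showed no such pattern. Signals were 2143.4, 2140.7 and 1633.1 in Ube2m shRNA cells, 2704.4, 2582.5 and 1569.2 in Ube2f shRNA cells and 2247.4, 2527.1 and 1179.4 in control cells. Replicate 3 was lowest in each group and the groups overlapped in every pairing. The difference of Ube2m shRNA from control was 0.05, with a 95% interval of -0.52 to 0.63.

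Gsto1 encodes an omega class enzyme, which acts as a thiol transferase and reduces dehydroascorbate. Its signal was 12772.9, 12083 and 11911.7 in Ube2m shRNA cells, 5263.5, 6231.2 and 4696.6 in Ube2f shRNA cells and 8548.4, 8442.9 and 9377.1 in control cells. No pair of groups overlapped, again with Ube2m shRNA highest and Ube2f shRNA lowest. The difference of Ube2m shRNA from control was 0.48 (SE 0.11), a 1.39-fold ratio of means, and 0.39 after median centring of each array, where Gsto1 was not among the genes called.

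Gstt1, a theta class enzyme that acts on small halogenated compounds, stayed near or under the low-signal level and was not tested. It had signals of 60.7, 23.3 and 13.2 in Ube2m shRNA cells, 59.6, 54.6 and 61.7 in Ube2f shRNA cells and 28.6, 40.1 and 42.5 in control cells. Its Ube2f shRNA arrays all lay above the control arrays, a difference of 0.50 that became 0.096 when signals under the low-signal level were set to it.

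Ube2f shRNA cells were set against control cells to ask whether the other NEDD8 enzyme gave the same pattern in these genes. Gsta4 and Gsto1 were lower in Ube2f shRNA than in control cells, and no gene of the family passed as higher. Limma's test with Benjamini-Hochberg adjustment over all genes called 0 of the 9 tested genes higher and 2 lower, where 5.19% of all genes tested were called, 2.23% higher and 2.96% lower. Without adjustment 3 genes had a limma p under 0.05, of which 1 was higher. The shares above are for adjusted p and do not apply to that count, from which nothing is read. This comparison shares its 3 control arrays with the Ube2m comparison, and the genes were picked with results of these arrays known. Groups did not overlap in 1 gene that was higher and 2 that were lower in Ube2f shRNA cells, against 11.6% of all genes tested in each direction. The higher gene was Gstt1, which was too dim to test and so is not among the genes behind that share. The median difference of the 10 genes was -0.09, beside 0.01 over all genes tested.

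Gsta4 fell in Ube2f shRNA cells by 0.89 on the log2 scale (SE 0.10, 95% interval -1.12 to -0.66), with means of 894 ± 70.0 in Ube2f shRNA and 1672 ± 107 in control cells (SD, n = 3 each). Limma's adjusted p was 0.000477, and all 3 Ube2f shRNA arrays lay below all control arrays. The difference was -0.79 in replicates 1 and 2 and -1.10 in replicate 3.

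Gsto1 fell by 0.71 (SE 0.11, 95% interval -0.95 to -0.47; limma adjusted p 0.00307), with means of 5397 ± 776 in Ube2f shRNA and 8789 ± 512 in control cells (SD, n = 3 each). The difference was -0.57 in replicates 1 and 2 and -0.995 in replicate 3. After median centring of each array the difference was -0.77 and the limma adjusted p 0.0798, so the call was lost there.

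The other 7 tested genes did not pass the threshold in this comparison. Gstm2 had the largest positive difference among them, 0.45 (95% interval 0.03 to 0.87), with a limma adjusted p of 0.210. Gstm5 was at -0.0041 (95% interval -0.30 to 0.29), Mgst1 at -0.18 (-0.60 to 0.23), Gstm1 at 0.29 (-0.11 to 0.70) and Mgst3 at 0.23 (-0.34 to 0.81). For Gsta2 and Gsta3 both groups were under the low-signal level, so no fold is given. The shared probe set of Gsta1, Gsta2 and Gm3776, fitted with every probe set by itself, was lower by 1.06 on the log2 scale (SE 0.19, limma adjusted p 0.0138), where 2.89% of 22519 probe sets were called.

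**Figure D2:**
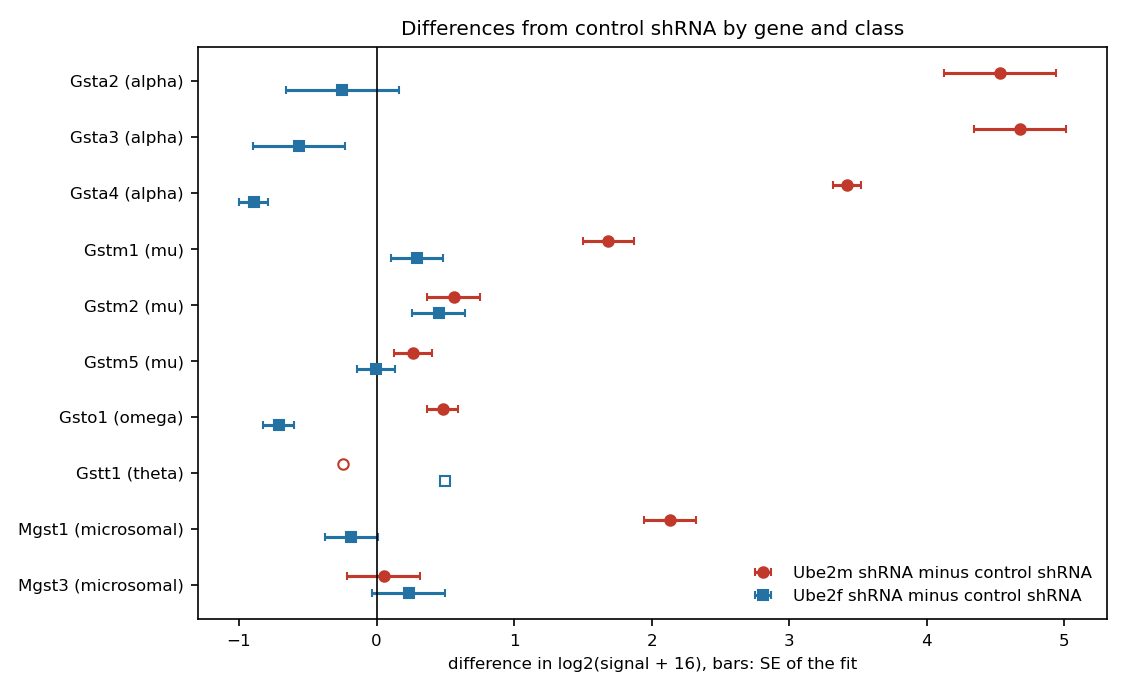
Log2 difference from control shRNA of each gene, Ube2m shRNA as red circles and Ube2f shRNA as blue squares; bars are standard errors of the fit and open symbols mark Gstt1, which was not tested. Gsta4 lies at 3.42 in Ube2m shRNA cells and at -0.89 in Ube2f shRNA cells; Gsta2 and Gsta3 were under the low-signal level in Ube2f shRNA and control cells, so their blue points rest on background signals and their red points depend on the added constant.

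Set against Ube2f shRNA cells directly, the Ube2m shRNA cells differed by 4.31 for Gsta4. For Gsta3 and Gsta2 the Ube2f shRNA arrays were under the low-signal level, and with such signals set to that level the differences were 3.51 and 3.42, so no order among the alpha class is given. Mgst1 differed by 2.31, Gstm1 by 1.39 and Gsto1 by 1.19. Because Gsto1 lay above control in Ube2m shRNA cells and below it in Ube2f shRNA cells, its difference between the hairpins exceeded either difference from control. Limma called 6 of the 9 tested genes higher and 0 lower, where 6.37% of all genes tested were called higher, 9.38% lower and 15.8% in either direction, and again nothing is read from that count. In 7 of the 10 genes all Ube2m shRNA arrays lay above all Ube2f shRNA arrays, against 13.7% of all genes tested.

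The 10 genes were covered by 18 probe sets, 17 assigned to 1 gene alone and 1 to several, and 5 genes had more than 1 of their own. Gstm1 had 4, and all 4 placed every Ube2m shRNA array above every control array, with differences of 1.69, 1.82, 1.06 and 0.60. Sets of the _x_at kind, as those reading 1.69 and 1.06, may also bind transcripts of relatives. Gsto1 was read alike by its 2 probe sets, with 0.48 and 0.52 in Ube2m shRNA cells and -0.71 and -0.58 in Ube2f shRNA cells relative to control. The second Gsta3 probe set had signals of 122.8, 137.2 and 226.6 in Ube2m shRNA cells, at most 3.6 in Ube2f shRNA cells and at most 19.2 in control cells. Its difference from control was 2.90. In Mgst1 the second probe set was under the low-signal level on every array and read a difference of 0.32, against 2.13 for the brighter one.

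**Figure D3:**
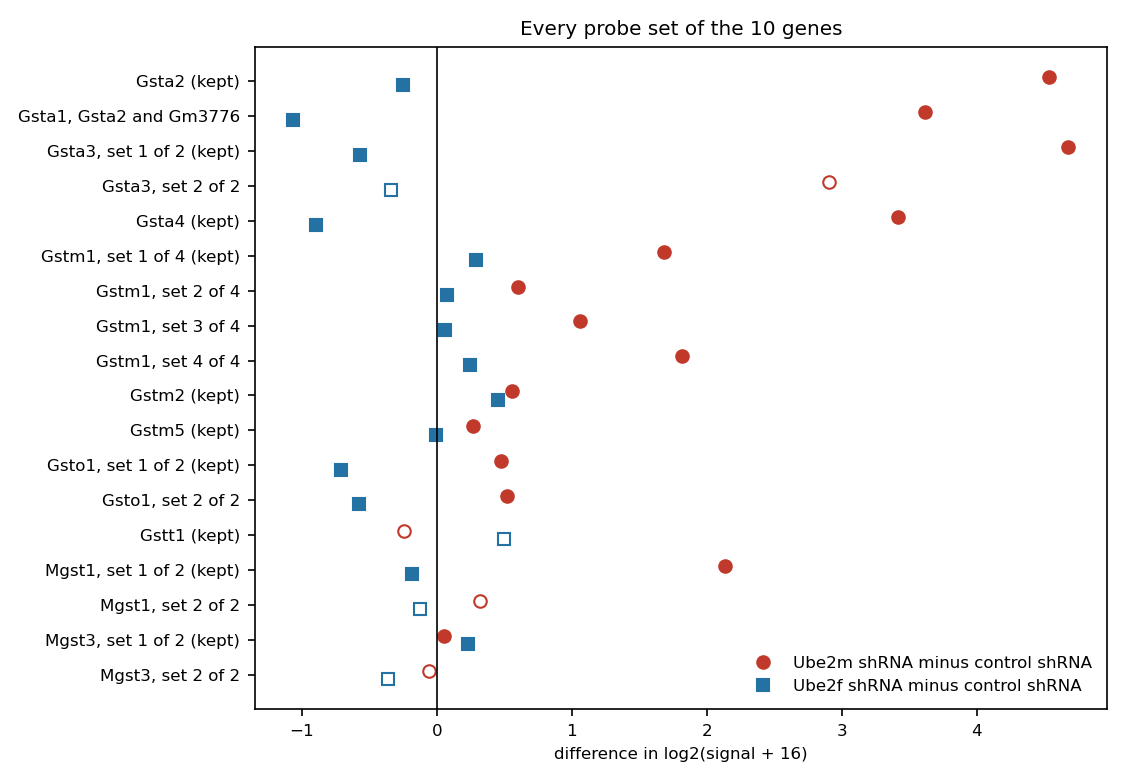
Log2 difference from control shRNA for each of the 18 probe sets, Ube2m shRNA as red circles and Ube2f shRNA as blue squares; open symbols are probe sets under the low-signal level in the mean, and the set kept for each gene is marked. The 4 Gstm1 sets range from 0.60 to 1.82 in Ube2m shRNA cells, and the second sets of Mgst1 and Mgst3 are open and near 0.

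The replicate 3 arrays differed from the other replicates in several of these genes. In each group all 3 mu class genes and Mgst3 were lower in replicate 3 than in the mean of replicates 1 and 2. For Mgst3 that shift was -0.39 in Ube2m shRNA, -0.75 in Ube2f shRNA and -1.01 in control cells, and for Gstm1 it was -0.31, -0.30 and -0.72 in the same order. Mgst1, the other microsomal gene, shifted by 0.06, -0.44 and -0.0091, and Gsta4 by -0.18, -0.19 and 0.12. The median shift over all genes tested was 0.016 in Ube2m shRNA, 0.021 in Ube2f shRNA and -0.038 in control cells. Because the shift was larger in control cells, differences from control were larger in replicate 3 for Gstm1 (1.96, against 1.55 in replicates 1 and 2), Gstm2 (0.92 against 0.38) and Mgst3 (0.46 against -0.15). What distinguished replicate 3 is not given in the labels.

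**Figure D4:**
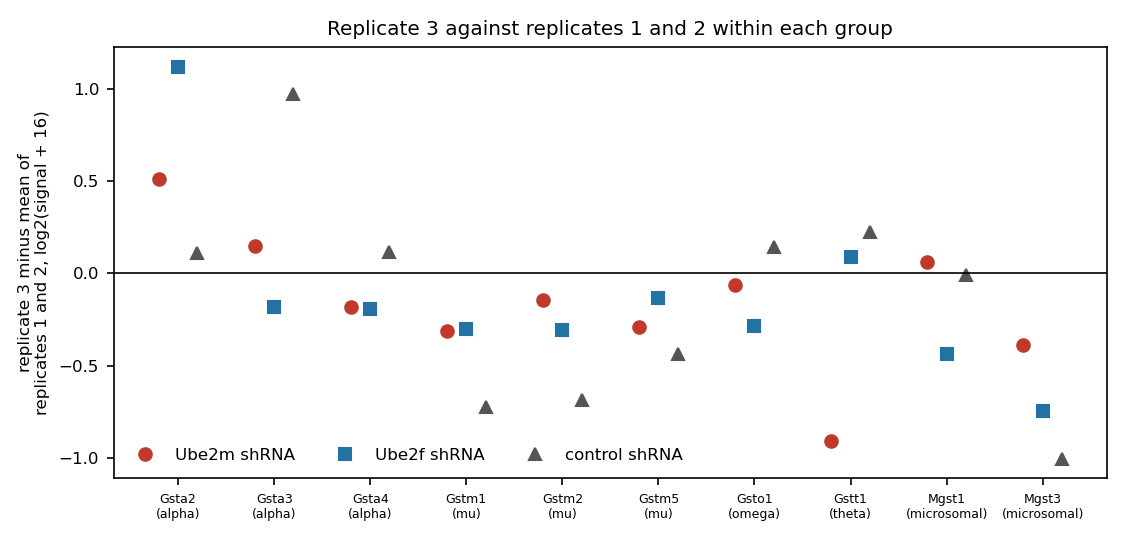
Replicate 3 minus the mean of replicates 1 and 2 on the log2 scale for each gene, with Ube2m shRNA as red circles, Ube2f shRNA as blue squares and control shRNA as grey triangles. All points of Gstm1, Gstm2, Gstm5 and Mgst3 lie under 0, with Mgst3 lowest in control cells at -1.01.

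How large the Gsta2 and Gsta3 differences appear depends on the constant added before taking logs. With a constant of 1 in place of 16 the difference between Ube2m shRNA and control cells was 5.73 for Gsta2 and 5.81 for Gsta3, and with 64 it was 3.28 and 3.39. Setting signals under the low-signal level to that level gave 3.42 and 3.51. Gsta4, Gstm1 and Gsto1, which were well above that level in all groups, hardly moved. Mgst1 read 2.25 with a constant of 1 and 1.84 with 64, beside 2.13 with 16.

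**Figure D5:**
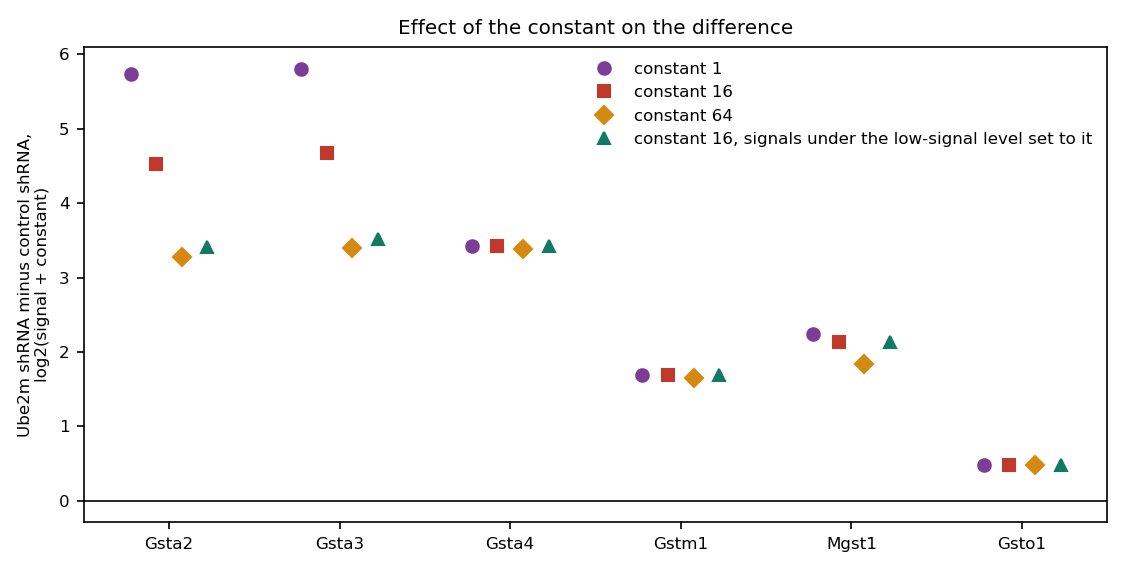
Log2 difference between Ube2m shRNA and control shRNA for 6 genes with constants of 1, 16 and 64, and with 16 after setting signals under 53.8 to 53.8. Gsta2 and Gsta3 spread over more than 2 log2 units, while Gsta4 stays near 3.42.

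Other family members were taken from a list of 23 genes, of which 19 were measured and 12 tested. In Ube2m shRNA cells 1 of the 12 was called higher than control and 0 lower, where 3.59% of all genes tested were called higher. In Ube2f shRNA cells 0 were called against control by limma, where 5.19% of all genes tested were called. Without adjustment 1 had a limma p under 0.05, Gstt3 with a difference of 0.55. That share is for adjusted p, so nothing is read from the unadjusted count. Between the hairpins 3 were higher in Ube2m than in Ube2f shRNA cells, where 6.37% of all genes tested were, and that count was 1 when any of the 3 Ube2m shRNA arrays or Ube2f shRNA replicate 1 was left out. Gstp1, a pi class gene, was the one called against control. It had signals of 19050 ± 1106 in Ube2m shRNA and 14612 ± 632 in control cells (SD, n = 3 each), a difference of 0.38 (SE 0.10, limma adjusted p 0.0385). The count against control ran from 0 to 2 over the alternative settings and was 0 after median centring of each array. It was also 0 with probe sets averaged, without the filter, with low signals set to the low-signal level, without the trend and with several single arrays left out. With the beta-actin covariate 0 were higher and 1 was lower. The replicate block and the replicate 3 batch term each gave 1 higher and 1 lower. Between the hairpins Mgst2, a microsomal enzyme that also makes leukotriene C4, had 182 ± 31.0 in Ube2m shRNA and 84.9 ± 25.5 in Ube2f shRNA cells (SD, n = 3 each), a difference of 0.99 (limma adjusted p 0.0204). Gstk1, the mitochondrial and peroxisomal kappa class enzyme, had 163 ± 41.6 in Ube2m shRNA and 73.6 ± 7.34 in Ube2f shRNA cells, a difference of 0.98 (limma adjusted p 0.0222, n = 3 each). The median difference of the 19 measured genes was 0.11 between Ube2m shRNA and control cells and -0.066 between Ube2f shRNA and control cells. Values that did not pass against control in Ube2m shRNA cells were 0.74 for Mgst2, 0.63 for Gstk1, 0.59 for Gsto2, 0.56 for Gstt3, 0.24 for Gstm3, 0.11 for Alox5ap, 0.02 for Ptges, -0.04 for Ptges2, -0.28 for Gstz1, -0.34 for Gstm7 and -0.41 for Gstcd. Gstm4, Gstm6, Gstp3, Gstt2, Gstt4, Hpgds and Ltc4s were too dim to test.

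Genes that make, recycle or export glutathione were taken from a list of 43, of which 39 were measured and 28 tested. Against control, 7 were called higher and 0 lower in Ube2m shRNA cells, and 0 higher and 1 lower in Ube2f shRNA cells. Of all genes tested, 3.59% were called higher and 6.12% lower in Ube2m shRNA cells, and 2.23% and 2.96% in Ube2f shRNA cells, so that 1 of 28 is near the share of all genes. The list was chosen with earlier results of these arrays known and is not independent evidence of its direction. Abcc4, an exporter of conjugates and organic anions, had signals of 4801 ± 525 in Ube2m shRNA and 744 ± 37.8 in control cells (SD, n = 3 each), a difference of 2.66 (limma adjusted p 1.98e-07). Gclm, the regulatory subunit of the enzyme that limits glutathione synthesis, had 10243 ± 269 and 2196 ± 338 in the same order, a difference of 2.22 (limma adjusted p 3.24e-07, n = 3 each). Its catalytic partner Gclc differed by 1.42 (limma adjusted p 0.000412) and Slc7a11, the cystine importer, by 1.37 (limma adjusted p 0.000749). Of these, Abcc4 differed by -0.28, Gclm by 0.05, Gclc by 0.10 and Slc7a11 by -0.36 between Ube2f shRNA and control cells, and none passed. Glrx2, a mitochondrial glutaredoxin, was the gene that fell in Ube2f shRNA cells, with 895 ± 77.3 in Ube2f shRNA and 1565 ± 110 in control cells (SD, n = 3 each), a difference of -0.80 (limma adjusted p 0.00174). The median difference of the 39 measured genes was 0.079 between Ube2m shRNA and control cells and 0.054 between Ube2f shRNA and control cells.

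Regulators were counted in the same way, against 9.71% of all genes tested called in Ube2m shRNA and 5.19% in Ube2f shRNA cells relative to control; 1 call among 9 genes is not set apart from those shares. Of 9 tested NRF2 regulators, Bach1, a repressor at antioxidant response elements, rose by 0.78 in Ube2m shRNA cells (limma adjusted p 0.00269), and the small MAF gene Mafk fell by 0.81 in Ube2f shRNA cells (limma adjusted p 0.00694). Of 4 tested genes of the aryl hydrocarbon receptor pathway, the receptor's target Cyp1b1 rose by 1.77 in Ube2m shRNA cells (limma adjusted p 0.000545). It fell by 1.25 in Ube2f shRNA cells (limma adjusted p 0.00749). The receptor Ahr had signals of 207 ± 59.2 in Ube2m shRNA, 37.6 ± 14.6 in Ube2f shRNA and 51.7 ± 17.6 in control cells (SD, n = 3 each). Both other groups averaged under the low-signal level, so Ahr entered the test only through the Ube2m shRNA arrays. Its fitted difference from control of 1.72 depends on the added constant, and nothing is read from its call.

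Among 2758 tested genes whose log2 signals spanned at least 1, the 5 whose profile over the 9 arrays was most like the mean of the 9 tested transferases were Abcc4 (Pearson r 0.996), Pla2g7 (0.992), Nqo1 (0.990), Gpc1 (0.988) and Aldh3a1 (0.987). The arrays share their grouping and the order is a description with no test. Nqo1, a quinone reductase, had mean signals of 14949 in Ube2m shRNA, 3588 in Ube2f shRNA and 4061 in control cells. Aldh3a1, an aldehyde dehydrogenase, had 982 in Ube2m shRNA, 48.0 in Ube2f shRNA and 48.5 in control cells. Its Ube2f shRNA and control means were under the low-signal level of 53.8, so Aldh3a1 entered the test only through the Ube2m shRNA arrays. Gsta2 and Gsta3, which are part of the mean profile, entered in the same way. Nothing is therefore read from the place of Aldh3a1 in the order.

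The arrays measured RNA of whole cultures, so more expressing cells and more RNA per cell cannot be told apart. Of 6 epithelial markers, Krt5, Krt8 and Krt18 averaged under the low-signal level and no marker of the list was at 0. The mean signal over the list was 949 to 1080 in Ube2m shRNA, 447 to 691 in Ube2f shRNA and 538 to 879 in control cells, the last 2 ranges overlapping. Krt14 carried that mean, with 5790 ± 432 in Ube2m shRNA, 2983 ± 732 in Ube2f shRNA and 4214 ± 1120 in control cells (SD, n = 3 each). Cdh1 had 106 ± 9.54, 162 ± 16.8 and 85.6 ± 34.8 and Epcam 141 ± 13.6, 168 ± 45.8 and 151 ± 30.4 in the same order, both highest in Ube2f shRNA cells. The part of these markers in the differences of Gsta4 and Gsto1 was not tested.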

How the data were processed

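The deposited values were read as linear intensity per probe set, made with MAS5 per the submitters' processing notes, with no version stated in any source used here. Per the labels' protocols, labelling with biotin started from 6 ug of total RNA. On every array the mean after trimming 2% at each end was 500.

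Of 45101 probe sets, 64 controls, 932 with several genes and 9160 without a gene name were left out of the fit across genes. The brightest probe set of each gene was kept, and 10613 genes with a mean log2(signal + 16) of at least 6.12 were tested. A model with 1 mean per group was fitted with limma 3.58.1 in R 4.3.3 (eBayes with trend), two-sided, with Benjamini-Hochberg adjustment over all genes tested and a threshold of 0.05. Of the 34945 probe sets with 1 gene, 34741 matched the mouse reference by gene ID.

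Replicate 3 arrays of different groups deviated together from their group means (correlations of 0.469, 0.519 and 0.628). Same-numbered pairs among replicates 1 and 2 correlated at 0.135 to 0.292, and replicate 1 with replicate 2 of another group at 0.191 to 0.324. Replicate 3 was thus set apart, while pairing by number within replicates 1 and 2 was not shown by these correlations. A replicate block and replicate 3 as a batch term were alternatives. Replicates shared at most 0.319% identical values. The labels call them biological replicates and do not say whether cultures were separate, so p-values measure the spread between these samples. The precision is limited by the number of arrays.

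The family members and gene lists were chosen with earlier results of these data known. Named were all members with every probe set, the measured relatives, at most 4 glutathione metabolism genes per direction with the largest changes past the threshold in both Ube2m comparisons, and the 5 genes most like the members in profile; Glrx2, Bach1, Mafk, Ahr and Cyp1b1, as sole or paired calls of their lists, were named after their values were seen. Alternatives changed the constant, filter, probe set choice, scaling, trend, samples and covariates; fitting each probe set by itself was added after seeing the data. The fit was tested on simulated data.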

Additional observations from a re-analysis of the deposited data

Results flagged for a closer look

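Gsta4 and Gsto1 moved in opposite directions in the knockdowns, since every Ube2m shRNA array lay above and every Ube2f shRNA array below all control arrays. They were found by searching the chosen transferases for that pattern. Its share over all genes tested was not computed, so the pattern is not shown to be particular to them. For Gsta4 the log2 difference from control was 3.42 in Ube2m shRNA cells and -0.89 in Ube2f shRNA cells. For Gsto1 it was 0.48 in Ube2m shRNA cells and -0.71 in Ube2f shRNA cells. The fit across all genes covered the comparison of the knockdowns, but these genes were chosen with it known, so no p-value for the opposite movement is read from it. The Gsto1 difference in Ube2m shRNA cells was 0.39 after median centring of each array, where it no longer passed the threshold. It also did not pass without Ube2m shRNA replicate 1 or 2 or control replicate 1 or 2. The Gsto1 call was likewise lost in the fit adjusted for beta-actin, and when low signals were raised to the low-signal level. Both differences are taken against the same 3 control arrays.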

How the results depend on the processing

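No difference of a transferase that passed the threshold changed sign under any alternative run. In Ube2f shRNA against control cells Gsta4 kept its call throughout, with differences of -0.96 to -0.79 and a largest limma adjusted p of 0.0208, and -0.94 to -0.83 with single arrays left out. Gsto1 ranged from -0.77 to -0.57, and -0.82 to -0.62 with single arrays left out, and lost its call only with each array centred on its median, which left 1 call in place of 2. The median difference of the 10 genes between Ube2m shRNA and control cells was 0.893 when the probe sets of each gene were averaged, and 0.986 to 1.30 with single arrays left out, highest without control replicate 2. Between Ube2f shRNA and control cells it was 0.068 with beta-actin as a covariate and -0.167 to 0.0723 with single arrays left out, so its sign is not settled. Between Ube2m and Ube2f shRNA cells it was 1.13 with probe sets averaged. The cause of these shifts was not tested. Members called in Ube2m shRNA against control cells, a comparison known when they were chosen, numbered 4 with a constant of 1, where Gsta2 and Gsta3 fell under the filter, and 8 with replicate 3 as a batch term, beside 6. With the replicate block they numbered 7, Gstm2 being added, and 7 between Ube2m and Ube2f shRNA cells, Gstm5 being added, from which likewise nothing is read. It changed no other call on a transferase of the 10. Glutathione metabolism genes called in Ube2f shRNA against control cells numbered 2 with the block, 4 with replicate 3 as a batch term and 5 with replicates 1 and 2 only, beside 1. Calls over all genes tested rose as well, to 1225, 1461 and 1121 in the same order, beside 551. Nothing about the glutathione genes is read from that rise. Other transferases called numbered 0 to 2 in Ube2m shRNA against control cells, beside 1, and 1 to 5 between Ube2m and Ube2f shRNA cells, beside 3, with 1 when low signals were not filtered or were set to the low-signal level and with replicates 1 and 2 only. Over all genes 1031 in Ube2m shRNA against control cells became 448 with the beta-actin covariate, 1866 with the replicate block, 2118 with replicate 3 as a batch term and 388 without Ube2m shRNA replicate 2. The 551 in Ube2f shRNA against control cells became 222 with median centring, 1225 with the block, 1461 with the batch term and 195 without Ube2f shRNA replicate 1. Median centring also moved the split of calls, to 124 higher and 401 lower in Ube2m shRNA against control cells (381 and 650 otherwise) and to 50 higher and 172 lower in Ube2f shRNA against control cells (237 and 314 otherwise). The 1672 between Ube2m and Ube2f shRNA cells ranged from 868 to 2714.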
